A study of Homo sapiens with 16 samples.

Results

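p53 target genes are genes whose transcription is raised by p53, the tumour suppressor that acts when DNA is damaged or a cell is under stress. A list of 34 such genes was followed here, named by pathway membership, with no measured value in the rule. It was chosen with earlier results of these data known, so the shares given below are descriptions. Of the 34, 32 were measured on probe sets that the platform annotation gives to 1 gene, out of 18132 genes measured that way, and BTG2 and FDXR were not analysed here. Affymetrix PrimeView arrays were run on 16 samples in 4 groups of 4, all total RNA of the established human line Nalm6, which derives from an acute lymphoblastic leukaemia of B-cell precursors. Control cells without treatment made up one group, and control cells given prednisolone, a synthetic glucocorticoid, for 24 hours made up another. The other groups were cells labelled as carrying active, overexpressed CASP1, again untreated or given prednisolone for 24 hours. The sources used here do not give the dose of prednisolone, how each line was made, whether it is 1 clone or what the control carries. By its title the series is about resistance to glucocorticoids and the inflammasome protease CASP1, which cleaves the glucocorticoid receptor.

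p53 is a tetrameric transcription factor that is normally kept scarce by its own targets MDM2, a ubiquitin ligase, and MDM4, its partner. When damage kinases release it from MDM2, p53 raises genes that stop the cell cycle, repair DNA, limit oxidative and metabolic stress, or set up apoptosis. Many of these genes also answer to other factors, and the p53-inducible sestrin SESN1 and TP53INP1 are among those also regulated outside the p53 pathway. Glucocorticoids kill lymphoid cells, and in B-precursor leukaemia the response to them is tied to survival of patients.

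p53 binds a response element made of a pair of decamers with a short spacer, and the decamer consensus was searched for in promoter windows to show which members carry it beside the start of transcription. RefSeq windows (GRCh38.p14) of 250 bases before to 50 after a start were found for 26 of the 34 genes, in 38 windows. At least 1 decamer stood in 7 of these 26 genes (26.9%), against 8.06% of 27305 genes with such windows. The 7 were AEN, DDB2, FAS, FDXR, PLK2, RPS27L and SESN1. A full element, with decamers at most 13 bases apart, stood in DDB2 alone among the members and in 10 genes (0.0366%) of all. The FOXO motif GTAAACA stood on either strand in 1 member, PERP (3.85% against 4.19% of all genes), and the glucocorticoid response element, with up to 2 mismatches, in 0 of the 26 against 1.74%. Genes with several starts have more windows, and by window the decamer share was 18.4% of 38 against 6.63% of 35116. A match is a description of letters, and binding was not measured. The stretches of 5 members described with their values are shown, each read 5′ to 3′ on the gene's strand, with the decamer, or for DDB2 the whole element with both decamers, in capitals.
DDB2, chr11:47214975-47215003, plus strand, element at bases 6 to 26 after the start: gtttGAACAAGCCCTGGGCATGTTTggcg
SESN1, chr6:109009003-109009062, minus strand: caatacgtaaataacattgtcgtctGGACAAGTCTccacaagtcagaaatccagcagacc
RPS27L, chr15:63157502-63157561, minus strand: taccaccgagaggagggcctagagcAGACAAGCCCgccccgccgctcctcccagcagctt
FAS, chr10:88991284-88991343, plus strand: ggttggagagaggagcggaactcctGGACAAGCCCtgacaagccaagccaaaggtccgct
AEN, chr15:88621281-88621339, plus strand: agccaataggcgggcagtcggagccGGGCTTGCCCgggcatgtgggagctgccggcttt

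All values are log2 signals made by the authors with RMA, which brings arrays to a common scale, so a level of one gene is not set against that of another. The brightest probe set stood for each gene. Calls rest on limma at an adjusted p under 0.05, with the adjustment made over all 18132 genes. Of 10 B-cell precursor markers measured, all had group means between 6.43 and 12.98, and 8 markers of other cell types had group means between 2.23 and 4.76. CASP1 went against its label on its brightest probe set, the only one read here for that gene. Arrays labelled CASP1 had less CASP1 signal, with a difference of -2.06 in untreated and -1.93 in treated cells, so every direction between the lines below follows the label and not a measured excess of CASP1. TSC22D3, a direct target of the glucocorticoid receptor, rose with prednisolone by 4.70 in control cells and, in those labelled CASP1, by 5.79, and NR3C1, which encodes that receptor, by 1.24 and 0.85. Replicate 1 often stood apart for the members. It was the highest of 4 arrays for 16 of 32 members in untreated control cells, 22 in untreated cells labelled CASP1 and 20 in treated cells labelled CASP1, and for 10 in treated control cells. Over all genes it was the highest in 33.7%, 38.1%, 36.5% and 31.6%. In treated control cells it was the lowest array for 16 of the 32. The share of all genes for which it was the lowest was not counted, so this is not read as a trait of the members. Nothing in the labels ties replicates to separate cultures, and the p-values therefore cover the spread between these arrays alone, which may be technical. In such bulk RNA, fewer cells that express a gene and less RNA per cell cannot be told apart.

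The main difference among the members was between the lines. In untreated cells 14 of 32 p53 targets (43.8%) were called higher on the arrays labelled CASP1, where 5.87% of all genes were, and TP53I3 alone was lower (3.12%, against 8.2% of all genes). With prednisolone 12 members (37.5%) were higher, against 7.88% of all genes, and again TP53I3 alone was lower, against 8.52%. The median difference of the 32 was 0.41 in untreated cells and 0.30 in treated cells, beside 0.01 and 0.04 over all genes. The comparisons of untreated and of treated cells share no arrays, but they set the same lines against each other. They also share each gene's estimate of spread. The share of all genes higher in both was not counted. Among the members 9 were higher in both, which is 64.3% of the first list and 75% of the second. These 9 were CCNG1, DDB2, FAS, GADD45A, PIDD1, POLH, RPS27L, TNFRSF10B and XPC. Without 1 array at a time the count called in either direction ranged from 9 to 17 in untreated cells, against 15, and from 11 to 14 in treated cells, against 13. The low value of 9 came without replicate 2 of the untreated control cells. Without all 4 arrays of replicate 1, 17 members were higher and 3 lower untreated (against 8.53% and 12.8% of all genes), and 15 and 4 treated (against 11.6% and 10.8%).

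**Figure D1:**
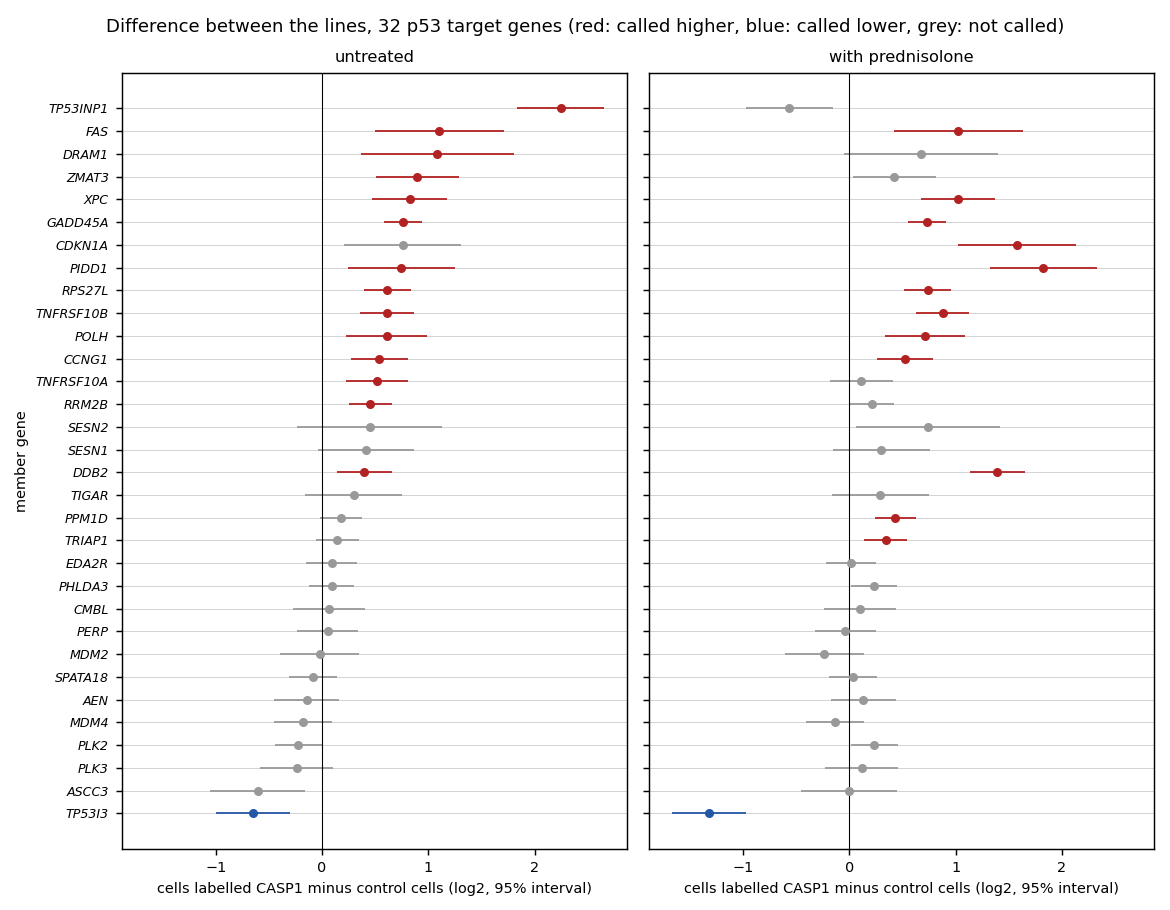
Difference of 32 p53 target genes between cells labelled CASP1 and control cells (x axis, log2, with 95% intervals), without (left) and with (right) prednisolone, 4 arrays in each group. Most points lie to the right of 0, with 14 called higher on the left and 12 on the right, while TP53I3 is the one member called lower in both.

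Prednisolone moved fewer members than differed between the lines. In control cells 3 of 32 rose (9.38%, against 5.73% of all genes) and 3 fell (9.38%, against 8.43%). TP53INP1, SESN1 and TP53I3 rose, and CDKN1A, DDB2 and PPM1D fell. That count of 6 depended on the fit. It was 12 with only these groups (6 rose and 6 fell, against 6.61% and 9.51% of all genes), 12 with a batch term for replicate 1 (6 and 6, against 7.7% and 11.1%) and 14 without its 4 arrays (8 and 6, against 8.8% and 13.1%). In cells labelled CASP1 3 members rose (9.38%, against 2.99% of all genes) and 0 fell in limma, where 3.35% of all genes fell. At an unadjusted p under 0.05, 1 member (TNFRSF10A) was lower, and 1 fell with each gene's probe sets averaged and 1 (CDKN1A) without the 4 arrays of replicate 1. With a trended, robust variance 0 fell. TP53INP1, SESN1 and AEN were the ones that rose, and without 1 array at a time 1 to 3 did. The median change of the 32 was 0.04 for control cells and 0.05 for those labelled CASP1, beside -0.01 and 0.02 over all genes. The 12 members called in no comparison had changes of -0.64 to 0.49 in control cells and -0.07 to 0.48 in the line labelled CASP1.

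The response itself differed between the lines for 2 members in the test of the interaction. DDB2 had a higher value in cells labelled CASP1 (3.12% of members, against 0.524% of all genes) and TP53INP1 a lower one (3.12%, against 0.364%). Both are single genes, and for TP53INP1 the call rests on the brighter of its probe sets, since the dimmer had 0.07. With 4 arrays a group an interaction of 0.5 was recovered for 21% of genes in simulated data on 18132 genes. The other 30 members are therefore not shown to respond alike. The treated control arrays enter the prednisolone comparison of control cells and the line comparison under treatment, so for one gene a low or high value there appears in both.

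**Figure D2:**
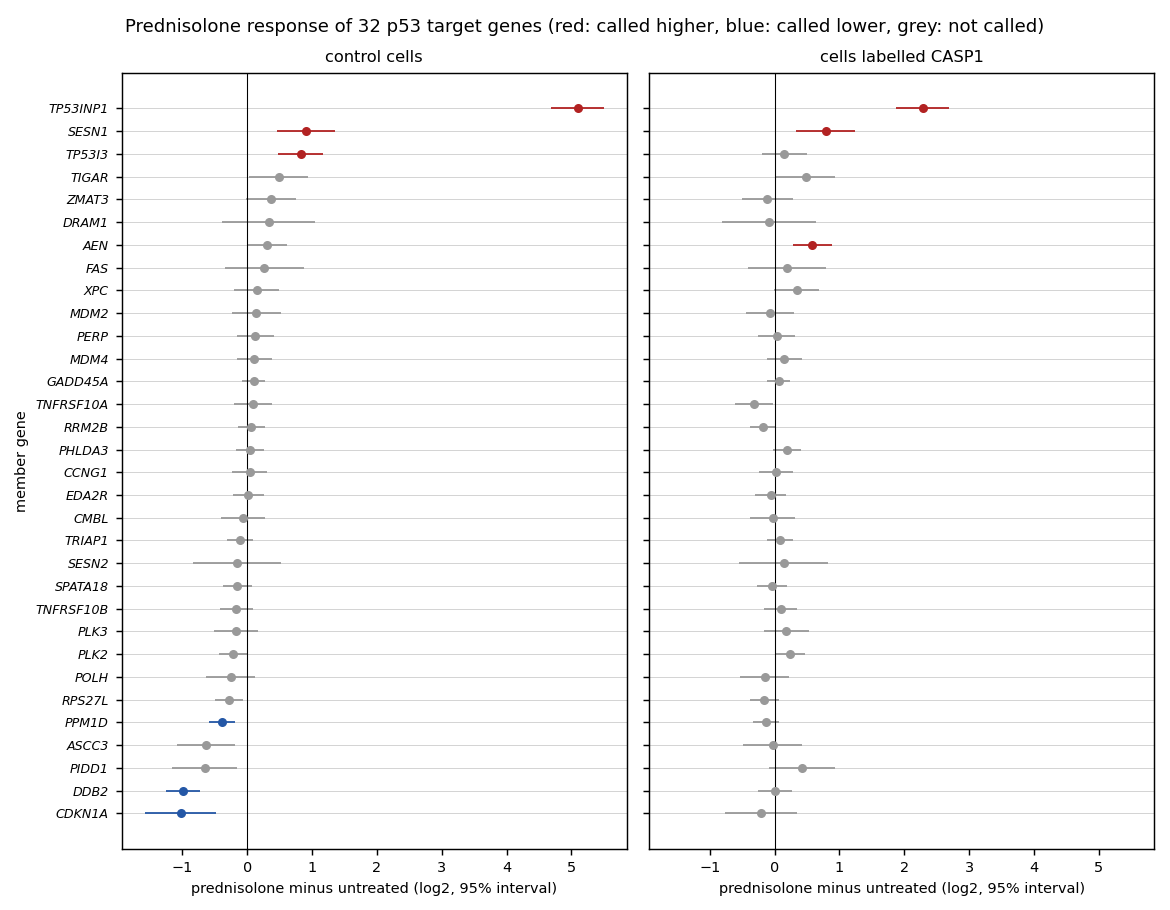
Change with prednisolone of the same 32 genes (x axis, log2 difference from untreated with 95% intervals) in control cells (left) and cells labelled CASP1 (right), 4 arrays in each group. TP53INP1 stands far to the right in both, at 5.10 and 2.28, and CDKN1A, DDB2 and PPM1D are called lower on the left only.

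TP53INP1, a p53-inducible stress protein that promotes autophagy and cell death, had the largest response of the members. In untreated control cells its signal was 6.90, 6.93, 7.01 and 7.16 in replicates 1 to 4, and with prednisolone it was 12.18, 12.11, 12.07 and 12.03. In cells labelled CASP1 it was 9.83, 8.97, 9.09 and 9.09 untreated and 10.84, 11.61, 11.86 and 11.80 with prednisolone. No array of a treated group overlapped the untreated arrays of its line, and the untreated groups of the lines did not overlap either. TP53INP1 rose by 5.10 (SE 0.19, 34.2-fold, adjusted p = 6.3e-12) in control cells and, in the line labelled CASP1, by 2.28 (SE 0.19, 4.87-fold, adjusted p = 3.7e-07). Its untreated signal was higher in the latter by 2.25 (4.74-fold, adjusted p = 6.7e-07), and the interaction was -2.81 (SE 0.27, adjusted p = 4.9e-05). With prednisolone the line difference was -0.57 and was not called (adjusted p = 0.055), although the treated arrays of the lines did not overlap.

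The dimmer probe set of TP53INP1 gave another picture of the lines. Its signal was 5.76, 5.26, 5.22 and 5.24 in untreated and 5.80, 5.75, 5.995 and 5.87 in treated control cells. It was 5.36, 5.11, 5.43 and 5.16 in untreated and 5.46, 5.85, 5.84 and 6.12 in treated cells labelled CASP1. The treated groups were higher on average in both lines, but replicate 1 of the untreated control cells overlapped the treated arrays of that line. The groups labelled CASP1 did not overlap, by a small margin. This probe set rose by 0.49 (SE 0.14, adjusted p = 0.026) in control cells and by 0.56 (adjusted p = 0.024) in the line labelled CASP1, by limma over all 44988 probe sets with 1 gene. Neither its untreated line difference of -0.10 nor its interaction of 0.07 was called. With the mean of both probe sets as the gene's value the rise was 2.79 in control cells and 1.42 in the other line, the untreated line difference 1.07 and the interaction -1.37, all called. The size of each TP53INP1 value therefore depends on the probe set, and so does the sign of the untreated line difference and of the interaction. A rise with prednisolone in both lines was called on each probe set.

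Among the other stress and metabolism genes, SESN1, a sestrin that restrains mTORC1 and oxidative damage, rose in both lines. Its signal was 8.42, 7.49, 7.46 and 7.40 in untreated and 8.28, 8.65, 8.77 and 8.70 in treated control cells. The line labelled CASP1 had 8.77, 7.88, 7.80 and 7.999 untreated and 9.03, 8.84, 8.89 and 8.85 treated. Replicate 1 was the high array of both untreated groups, and in control cells it overlapped the treated arrays. The rise was 0.91 (SE 0.21, adjusted p = 0.0067) in control cells and 0.79 (adjusted p = 0.034) in the line labelled CASP1. Within replicate 1 the change in control cells was -0.15, and within replicates 2 to 4 it was 1.26. For the line labelled CASP1 these values were 0.26 and 0.97, and the call ended without any 1 of 7 of the 8 arrays, untreated replicate 1 being the exception (0.69 to 0.81, adjusted p 0.057 to 0.11). Both SESN1 probe sets rose in both lines.

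SESN2, its relative, was called nowhere, and DRAM1 differed between the lines. For SESN2 replicate 1 of the untreated control cells was at 8.78 and the other 3 arrays at 6.86 to 6.97. Its untreated line difference was -0.55 within replicate 1 and 0.78 within replicates 2 to 4. DRAM1, a lysosomal membrane protein that promotes autophagy, was at 5.89, 4.83, 4.68 and 4.77 in untreated control cells and at 7.18, 5.70, 5.85 and 5.79 in the untreated line labelled CASP1. Under treatment the lines were at 6.22, 5.40, 4.83 and 5.05 and at 6.54, 5.68, 5.95 and 6.02, and that difference of 0.67 was not called. Replicate 1 was the highest in all 4 groups. The untreated difference was 1.09 (SE 0.34, 2.12-fold, adjusted p = 0.041). That call ended without control replicate 2, 3 or 4 or without replicate 1 or 3 of the cells labelled CASP1 (0.74 to 1.18, adjusted p 0.054 to 0.15), with only these groups in the fit (adjusted p = 0.058) and with a trended, robust variance (adjusted p = 0.068). The other DRAM1 probe set was called higher in both states by limma over all probe sets with 1 gene. Its differences were 0.76 untreated (adjusted p = 0.039) and 0.82 treated (adjusted p = 0.022). TIGAR, which lowers glycolytic flux, was called in no comparison, with signals of 6.99 to 8.58 and changes of 0.49 and 0.48 on prednisolone.

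CDKN1A, which encodes p21, the cyclin-dependent kinase inhibitor that carries out much of the p53 arrest, fell in control cells. Its signal was 10.77, 9.92, 9.95 and 9.94 untreated and 9.45, 9.08, 8.98 and 8.95 with prednisolone. The line labelled CASP1 had 11.46, 10.73, 10.70 and 10.72 untreated and 11.61, 10.20, 10.55 and 10.41 treated. Every treated control array lay below every other array, and replicate 1 was the high array of each group. The fall in control cells was -1.03 (SE 0.26, 2.04-fold, adjusted p = 0.011), while in cells labelled CASP1 the change was -0.21 (95% interval -0.77 to 0.34, not called). Without all 4 arrays of replicate 1 that change was -0.33 and called (adjusted p = 0.020). The interaction of 0.82 (95% interval 0.03 to 1.60, adjusted p = 0.46) was not called, but it was with a batch term for replicate 1 (adjusted p = 0.0087), with a replicate block (adjusted p = 0.021) or without that replicate (0.60, adjusted p = 0.012). Under treatment CDKN1A was higher in the line labelled CASP1, at a difference of 1.58 (SE 0.26, 2.98-fold, adjusted p = 0.00044). In untreated cells the difference of 0.76 was not called (adjusted p = 0.066), but was called without replicate 1 of the untreated control cells (0.97, adjusted p = 0.019). Both CDKN1A probe sets were called for the fall and for the treated difference.

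GADD45A and CCNG1 were called in both comparisons of the lines and in none of the other 3. GADD45A, a stress sensor that acts at the cell cycle and in repair, was at 9.60, 9.65, 9.66 and 9.73 in untreated control cells and 10.27, 10.45, 10.44 and 10.51 in the untreated line labelled CASP1. With prednisolone it was at 9.66, 9.82, 9.77 and 9.77 and at 10.45, 10.32, 10.63 and 10.55. All 8 arrays labelled CASP1 lay above all 8 control arrays. The difference was 0.76 (SE 0.084, adjusted p = 8.2e-06) untreated and 0.73 (adjusted p = 1.3e-05) treated. CCNG1, which encodes cyclin G1, a partner of a phosphatase that acts on MDM2, had means of 10.90 ± 0.17 and 11.44 ± 0.14 (SD, n = 4) in untreated control cells and cells labelled CASP1, and 10.94 ± 0.26 and 11.46 ± 0.16 in treated ones. It was higher by 0.54 (adjusted p = 0.0074) and 0.52 (adjusted p = 0.0081), and all 5 of its probe sets were called higher in both comparisons.

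Of the DNA repair members DDB2, XPC and POLH were called higher in cells labelled CASP1 in both states and RRM2B in untreated cells, while ASCC3 was not called. DDB2, the sensor of ultraviolet lesions in nucleotide excision repair and the member with the full element shown above, was at 9.50, 9.23, 9.30 and 9.36 in untreated control cells. With prednisolone it was at 8.26, 8.44, 8.40 and 8.32. Cells labelled CASP1 were at 10.01, 9.60, 9.69 and 9.68 untreated and 10.06, 9.41, 9.84 and 9.70 treated. The treated control arrays were lower than all others, and the groups labelled CASP1 overlapped each other. DDB2 fell in control cells by -0.99 (SE 0.12, 1.98-fold, adjusted p = 1.3e-05), changed by 0.01 (not called) in the line labelled CASP1, and the interaction was 0.995 (SE 0.17, adjusted p = 0.0081). Under treatment it was higher in the line labelled CASP1, at a difference of 1.39 (2.63-fold, adjusted p = 6.8e-07). In untreated cells the difference was 0.40 (adjusted p = 0.035), a call that ended without control replicate 2, 3 or 4 or replicate 1, 3 or 4 of the cells labelled CASP1 (0.31 to 0.42, adjusted p 0.055 to 0.12). Both DDB2 probe sets were called for the fall, the interaction and each line difference.

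XPC, which recognises helix-distorting lesions in the same repair pathway, was at 7.32, 6.81, 6.80 and 6.86 in untreated control cells and 8.15, 7.61, 7.59 and 7.73 in the untreated line labelled CASP1. With prednisolone it was at 7.29, 7.23, 6.89 and 6.95 and at 8.57, 7.81, 8.004 and 8.06. The lines did not overlap in either state. The difference was 0.82 (SE 0.17, adjusted p = 0.0024) untreated and 1.02 (adjusted p = 0.00034) treated. POLH, the polymerase that copies past ultraviolet lesions, had means of 7.01 ± 0.30 and 7.62 ± 0.36 (SD, n = 4) in the untreated lines, control first, and 6.76 ± 0.14 and 7.47 ± 0.30 in the treated ones. It was higher by 0.61 untreated (adjusted p = 0.030) and by 0.71 treated (adjusted p = 0.011). Its untreated call ended without control replicate 2, 3 or 4 or replicate 1 or 4 of the cells labelled CASP1 (0.44 to 0.62, adjusted p 0.057 to 0.11) and with only these groups in the fit (adjusted p = 0.052), while all 4 of its probe sets were called higher in both comparisons. RRM2B, the p53-inducible subunit of ribonucleotide reductase, had means of 8.004 ± 0.12 and 8.46 ± 0.10 (SD, n = 4) untreated and 8.07 ± 0.17 and 8.28 ± 0.12 treated, control first. It was higher by 0.46 untreated (SE 0.098, adjusted p = 0.0038) in 8 called probe sets of 9, and the treated difference of 0.22 was not called.

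FAS, TNFRSF10B and PIDD1 were called higher in the line labelled CASP1 in both states, and TNFRSF10A in untreated cells, where its signal was low. FAS, the receptor for FAS ligand, was at 6.46, 5.50, 5.51 and 5.67 in untreated control cells and 7.53, 6.68, 6.59 and 6.75 in the untreated line labelled CASP1. With prednisolone it was at 6.62, 5.96, 5.72 and 5.90 and at 7.98, 6.76, 6.85 and 6.72. Replicate 1 was the high array of every group, and the lines did not overlap in either state. The difference was 1.10 (SE 0.29, 2.15-fold, adjusted p = 0.014) untreated and 1.03 (2.04-fold, adjusted p = 0.020) treated, and both FAS probe sets were called. The untreated call ended without control replicate 2 or replicate 1 of the cells labelled CASP1 (0.89 to 1.01, adjusted p 0.050 to 0.057). The treated call ended without control replicate 2, 3 or 4 or replicate 1 of the cells labelled CASP1 (0.72 to 0.996, adjusted p 0.052 to 0.064).

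TNFRSF10B, a receptor for the death ligand TRAIL, was at 9.17, 9.11, 9.06 and 9.06 in untreated control cells and at 9.93, 9.68, 9.66 and 9.58 in the untreated line labelled CASP1. With prednisolone it was at 8.86, 8.96, 8.96 and 8.95 and at 10.21, 9.48, 9.82 and 9.73. Here too the lines were apart in both states, by 0.61 (SE 0.12, adjusted p = 0.0019) and 0.88 (adjusted p = 6.4e-05), and all 3 probe sets were called higher. TNFRSF10A, the other TRAIL receptor with a death domain, had signals of 2.48 to 3.55, with means of 2.67 ± 0.18 and 3.19 ± 0.31 (SD, n = 4) in the untreated lines, control first, and 2.76 ± 0.17 and 2.87 ± 0.15 in the treated ones. Its untreated difference of 0.51 (adjusted p = 0.017) lost its call without replicate 2 or 3 of either untreated group (0.40 to 0.48, adjusted p 0.055 to 0.070), and it has 1 probe set.

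PIDD1, the scaffold on which caspase 2 is activated, had the largest line difference under treatment. It was at 7.23, 7.30, 7.50 and 7.57 in untreated and 6.57, 6.81, 6.73 and 6.87 in treated control cells. The line labelled CASP1 was at 8.42, 8.12, 8.01 and 8.04 untreated and 9.65, 7.98, 8.32 and 8.33 treated. Replicate 1 of the last group was far above its other 3 arrays. The treated difference was 1.83 (SE 0.24, 3.55-fold, adjusted p = 4.2e-05) and was 1.47 without that array. The untreated difference of 0.75 (adjusted p = 0.045) lost its call without any 1 of the 8 arrays (0.66 to 0.80, adjusted p 0.064 to 0.13) and with a trended, robust variance (adjusted p = 0.052). AEN, an apoptosis-enhancing nuclease, had means of 7.89 ± 0.18 untreated and 8.47 ± 0.38 treated (SD, n = 4) in the line labelled CASP1, and of 8.03 ± 0.05 and 8.34 ± 0.15 in control cells. The rise in the former was 0.58 (SE 0.15, adjusted p = 0.020). This call ended without untreated replicate 2, 3 or 4 (0.54 to 0.56, adjusted p 0.058 to 0.068) and with only these groups in the fit (adjusted p = 0.11). In control cells AEN changed by 0.31, not called.

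TP53I3, a quinone oxidoreductase induced by p53 and linked to oxidative stress, was the one member called lower in cells labelled CASP1. It was at 6.46, 5.89, 6.15 and 6.20 in untreated and 7.43, 7.10, 6.74 and 6.72 in treated control cells, which did not overlap. Cells labelled CASP1 were at 5.53, 5.44, 5.44 and 5.69 untreated and 5.32, 5.53, 5.96 and 5.90 treated, which did overlap. It rose in control cells by 0.82 (SE 0.17, adjusted p = 0.0018), changed by 0.15 in the line labelled CASP1 (not called), and was lower there by -0.65 untreated (adjusted p = 0.012) and by -1.32 treated (2.50-fold, adjusted p = 2.8e-05). The interaction of -0.67 was not called. TP53I3 has 1 probe set here.

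**Figure D3:**
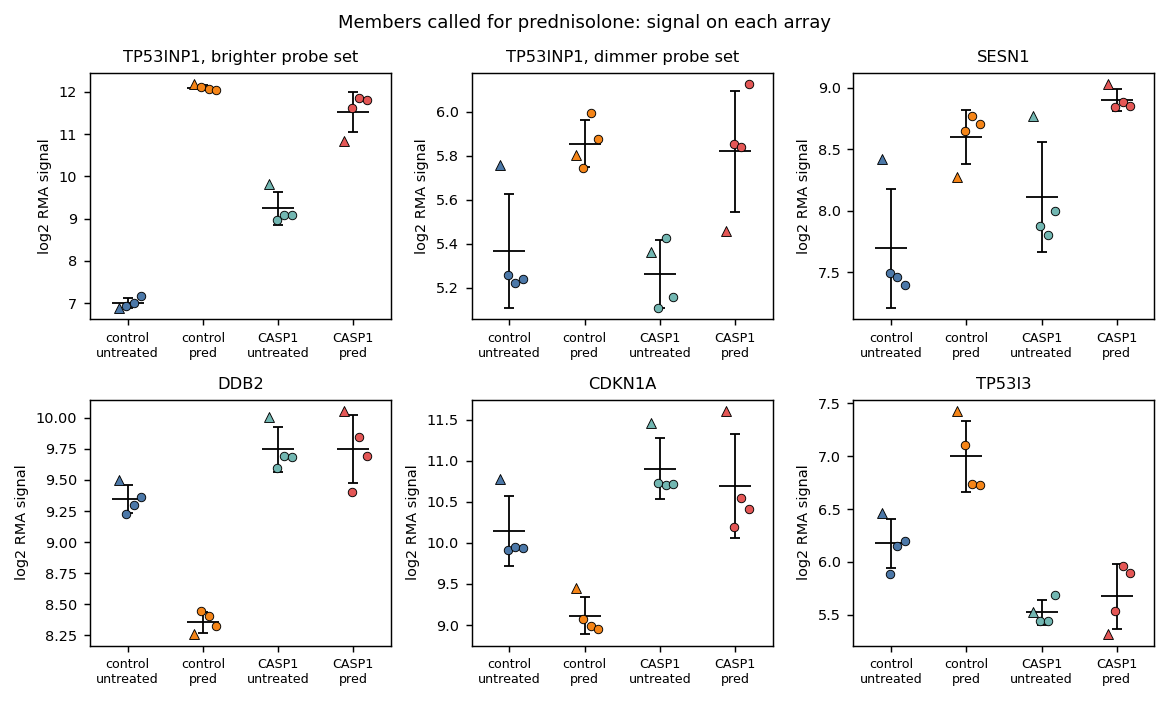
Signal of the members called for prednisolone with array values in the text (y axis, log2 RMA signal; PPM1D and AEN are not drawn) in the 4 groups (x axis), with both TP53INP1 probe sets. Triangles are replicate 1, circles replicates 2 to 4, and bars the mean and SD of 4 arrays, on a y axis of its own in each panel. Treated control arrays are the lowest for DDB2 and CDKN1A and the highest for TP53I3.

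Of the genes that restrain p53 or damage signalling, MDM2 and MDM4 were not called between the lines and PPM1D was called higher under treatment. MDM2 was at 9.27, 9.65, 9.71 and 9.58 in untreated and 9.03, 9.94, 9.89 and 9.92 in treated control cells. The line labelled CASP1 was at 9.95, 9.40, 9.36 and 9.42 untreated and 9.57, 9.35, 9.47 and 9.44 treated. Replicate 1 was the lowest in both control groups and the highest in both others, so that the lines overlap through that replicate alone. The difference was -0.02 (95% interval -0.40 to 0.35) untreated and -0.24 (95% interval -0.61 to 0.14) treated, neither called. Without replicate 1 of the treated control cells the treated difference was -0.46 and called (adjusted p = 0.030), and without all 4 arrays of replicate 1 the differences were -0.26 (adjusted p = 0.012) and -0.49 (adjusted p = 0.00011). Its 11 probe sets disagreed, since 10 had an untreated difference above 0, up to 0.87 in the 1 that was called, while the brightest had -0.02. Averaged over its probe sets the differences were 0.31 and 0.04, neither called. MDM4 was called nowhere, at 9.13 to 9.87. PPM1D, the phosphatase that switches off damage signalling, fell in control cells by -0.39 (SE 0.093, adjusted p = 0.0074) from a mean of 9.42 ± 0.02 (SD, n = 4) to 9.03 ± 0.17, in 1 called probe set of 4. The line labelled CASP1 had 9.60 ± 0.08 untreated and 9.46 ± 0.14 treated. Under treatment it was higher in cells labelled CASP1 by 0.43 (adjusted p = 0.0035).

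Of the remaining members, RPS27L and ZMAT3 were higher in the line labelled CASP1. RPS27L, a ribosomal protein relative that acts on MDM2, had means of 11.45 ± 0.10 and 12.06 ± 0.20 (SD, n = 4) in the untreated lines, control first, and 11.17 ± 0.03 and 11.90 ± 0.18 in the treated ones. It was higher by 0.61 untreated (SE 0.11, adjusted p = 0.00063) and 0.74 treated (adjusted p = 0.0001). Its other, dimmer probe set was called higher untreated (1.16) but not treated (0.11), and fell with prednisolone in the line labelled CASP1 by -0.62 (adjusted p = 0.044). ZMAT3, an RNA-binding protein induced by p53, had means of 8.56 ± 0.20 and 9.45 ± 0.34 untreated and 8.92 ± 0.09 and 9.34 ± 0.44 treated, control first. It was higher by 0.90 untreated (SE 0.19, adjusted p = 0.0029), and the call ended where both of its probe sets were averaged (0.69, adjusted p = 0.083). TRIAP1, a mitochondrial inhibitor of apoptosis, had means of 9.81 ± 0.04 and 9.95 ± 0.05 untreated and 9.69 ± 0.05 and 10.03 ± 0.24 treated, control first. It was higher under treatment by 0.34 (adjusted p = 0.020). That call ended without treated control replicate 3 (0.32, adjusted p = 0.055) and with only these groups in the fit (adjusted p = 0.093), and the value was 0.22 when the treated array of replicate 1 labelled CASP1 was left out.

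A total of 12 members were called in no comparison on their brightest probe set. Besides MDM2, MDM4, SESN2 and TIGAR they were ASCC3, CMBL, EDA2R, PERP, PHLDA3, PLK2, PLK3 and SPATA18. By limma over all probe sets with 1 gene, 1 of 11 MDM2 probe sets (0.72, adjusted p = 0.0031) and 1 of 6 of MDM4 (0.48, adjusted p = 0.0048) rose with prednisolone in control cells. The dimmer TIGAR probe set was lower in treated cells labelled CASP1 (-0.29, adjusted p = 0.010), where the brightest had 0.29. CMBL, EDA2R, PERP, PLK2 and SPATA18 had signals under 5 on every array. PHLDA3 was at 5.26 to 5.79 and PLK3 at 4.77 to 5.69. Between the lines the 12 differed by -0.61 to 0.45 untreated and by -0.24 to 0.74 treated. ASCC3, a helicase for alkylation repair, was at 7.995 to 8.09 in untreated and 7.33 to 7.45 in treated control cells, without overlap, but its change of -0.64 was not called (adjusted p = 0.056). Its untreated line difference was -0.61, lower in cells labelled CASP1 without overlap and not called (adjusted p = 0.068). The other ASCC3 probe sets had untreated line differences of -0.11 to 0.01. Of its 4 probe sets, 1 dimmer one was called higher in treated cells labelled CASP1 (0.39, adjusted p = 0.040, limma over all probe sets with 1 gene).

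**Figure D4:**
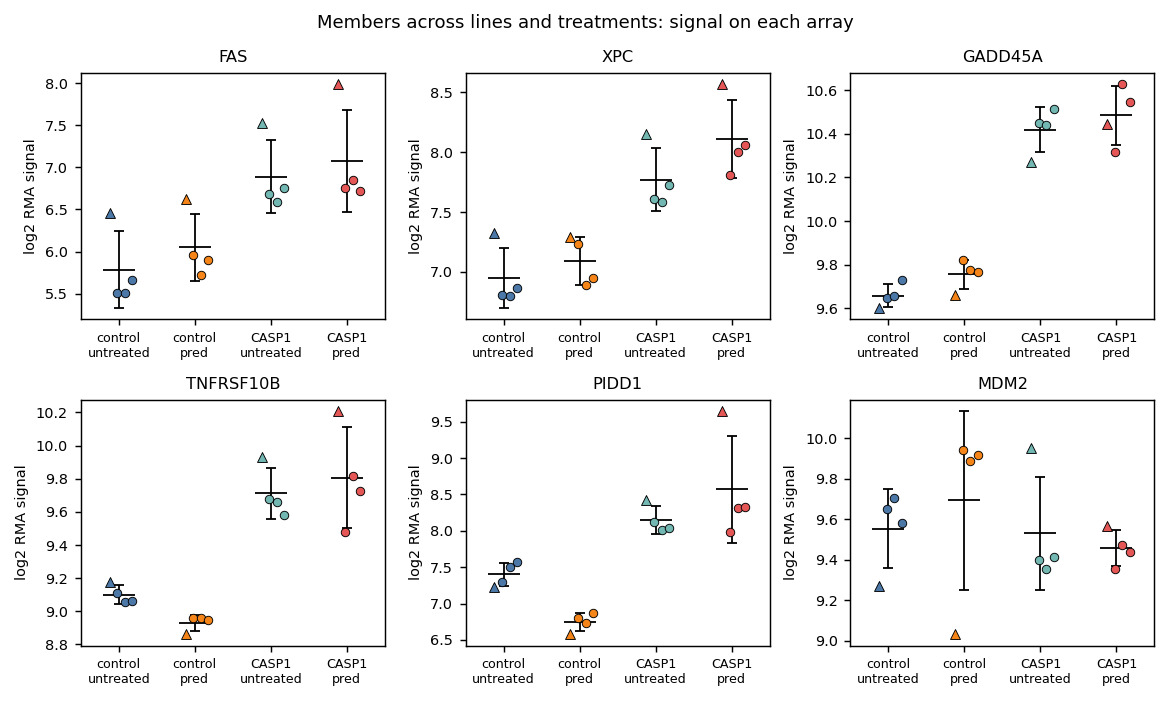
Signal of 6 members in the 4 groups (y axis, log2 RMA signal, on a scale of its own in each panel), with replicate 1 as triangles, replicates 2 to 4 as circles and bars for mean and SD of 4 arrays. FAS, XPC, GADD45A, TNFRSF10B and PIDD1 lie higher in cells labelled CASP1 in both states, and MDM2 overlaps.

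Further genes of the pathway were counted in 3 lists. Upstream kinases, cofactors and regulators of p53 had 26 measured of 29. On the untreated arrays labelled CASP1, 1 was higher (3.85%, against 5.87% of all genes) and 6 were lower (23.1%, against 8.2%). On the treated ones 1 was higher (3.85%, against 7.88%) and 7 were lower (26.9%, against 8.52%), and the medians were -0.06 and -0.11. PRKDC, the catalytic subunit of the DNA-dependent kinase, was lower by -0.64 (adjusted p = 0.00033) and ATR, a replication stress kinase, by -0.64 (adjusted p = 0.001) in untreated cells. With prednisolone 1 rose (3.85%, against 5.73% of all genes) and 4 fell (15.4%, against 8.43%) in control cells. Among those that fell were the checkpoint kinases CHEK1 at -1.03 (adjusted p = 2.5e-07) and CHEK2 at -0.79 (adjusted p = 3.9e-05). In the line labelled CASP1 1 (PRKDC, -0.35) fell (3.85%, against 3.35% of all genes). There 0 rose in limma (1 higher at an unadjusted p under 0.05), where 2.99% of all genes did.

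Other p53 targets, 37 measured of 40, had 7 higher (18.9%, against 5.87% of all genes) and 4 lower (10.8%, against 8.2%) in untreated cells labelled CASP1, with a median of 0.12. In treated ones 5 were higher (13.5%, against 7.88%) and 3 lower (8.11%, against 8.52%). TNFRSF10D, a TRAIL receptor without a working death domain, was higher by 1.25 (adjusted p = 0.001) and 1.39 (adjusted p = 0.00035). IER5, an immediate early gene, was higher by 1.23 and 1.21 (adjusted p = 0.0013 in both). With prednisolone 4 rose (10.8%, against 5.73% of all genes) and 3 fell (8.11%, against 8.43%) in control cells, including SERTAD1, a partner of cyclin-dependent kinase 4, at 1.40 (adjusted p = 3.5e-05) and E2F7, a repressor of cell cycle genes, at -1.14 (adjusted p = 8.8e-05). In the line labelled CASP1 0 rose in limma, where 2.99% of all genes did, with 6 higher at an unadjusted p under 0.05. There 2 fell (5.41%, against 3.35% of all genes).

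Family relatives of the members, most of them not known as p53 targets, were counted the same way. Of 22 measured, 8 were higher and 0 lower untreated and 9 and 0 treated, with medians of 0.30 and 0.28. Over all genes 8.2% and 8.52% were called lower. At an unadjusted p under 0.05 in limma, 1 relative was lower in each. The share called higher was 36.4% and 40.9%, beside 43.8% and 37.5% of the members and 5.87% and 7.88% of all genes, so a raised share was not particular to p53 targets. PHLDA1, a relative of PHLDA3, was higher by 1.67 (adjusted p = 1.0e-08) and 1.85 (adjusted p = 2.3e-09). SESN3, the third sestrin, was higher by 0.81 untreated (adjusted p = 0.0025). With prednisolone 3 relatives rose (13.6%, against 5.73% of all genes) and 6 fell (27.3%, against 8.43%) in control cells. In cells labelled CASP1 2 rose (9.09%, against 2.99% of all genes) and 3 fell (13.6%, against 3.35%). BTG1, an antiproliferative relative of BTG2, rose by 1.87 (adjusted p = 9.5e-07) and 1.32 (adjusted p = 0.00012). CDKN1C, another kinase inhibitor of the CDKN1A family, fell by -1.58 (adjusted p = 4.7e-06) and -1.22 (adjusted p = 0.00023), and RRM2, the replicative relative of RRM2B, by -1.25 (adjusted p = 4.0e-07) and -0.63 (adjusted p = 0.0018).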

How the data were processed

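Total RNA of Nalm6 cells was measured on 16 arrays in 4 groups of 4. Per the submitters' processing notes the authors made the deposited log2 values with RMA, and the sources used here give no software version. The table held 49395 probe sets and 0 columns of no sample, and array medians lay between 4.85 and 4.93. Names came from the platform annotation of each probe set (44988 with 1 gene, 1832 with several, which were not used), 99.94% matched RefSeq by Entrez identifier, and 0 symbols were updated. The probe set with the highest mean over 16 arrays stood for its gene. Group means were fitted over all genes with limma 3.58.1 in R 4.3.3 (eBayes, two-sided, 12 residual degrees of freedom), and p-values were adjusted by Benjamini-Hochberg over 18132 genes. In simulated data on these genes a log2 change of 1 was recovered for 93% (prednisolone in control cells) and 78% (interaction). For arrays, their number limits the precision.

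Members and lists were chosen with earlier results of these data known. Values by group are given for members called in any comparison and for MDM2, and other members by range or by a bound on their signals. From each further list up to 4 called genes with the largest difference are named, and SESN3. Deviations from group means correlated from 0.19 to 0.51 between arrays of replicate 1, but from -0.12 to 0.26 between arrays of the same other number, so the numbers were not taken as pairs. Alternatives were other normalizations, filters, probe set rules, samples, variance models, a replicate block, a batch term for replicate 1 and leaving out arrays.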

Additional observations from a re-analysis of the deposited data

Results flagged for a closer look

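An array stood far from the other 3 of its group (Dixon's test at 95%) in 16 of 84 groups of the 21 members examined. The test flags about 5% by chance, and 15 of the 16 were replicate 1. The 84 groups come from the same 16 arrays. Deviations of the replicate 1 arrays also correlated over all genes, from 0.19 to 0.51. The share of all genes flagged in this way was not counted, so the excess is not read as a trait of the members. In untreated control cells replicate 1 was the highest for CDKN1A at 10.77, SESN1 at 8.42, DRAM1 at 5.89, FAS at 6.46 and XPC at 7.32. In untreated cells labelled CASP1 it was the highest for CDKN1A at 11.46, TP53INP1 at 9.83, DRAM1 at 7.18, RPS27L at 12.36, ZMAT3 at 9.97 and MDM2 at 9.95. In treated cells labelled CASP1 it was the highest for FAS at 7.98 and TRIAP1 at 10.39. In treated control cells it was the lowest for TNFRSF10B at 8.86 and MDM2 at 9.03. The exception was AEN, where replicate 4 of the untreated control cells was the highest at 8.11. What set replicate 1 apart was not tested.

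The response to prednisolone differed between the lines, by the test of the interaction on the brightest probe set, for DDB2 (0.995, limma adjusted p = 0.0081) and TP53INP1 (-2.81, limma adjusted p = 4.9e-05). Both probe sets of DDB2 were called, but the dimmer one of TP53INP1 had 0.07 and was not.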

How the results depend on the processing

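Of the 39 called differences of members, 0 changed sign under the alternatives tried. The call was kept by 341 of 348 values under other settings and by 283 of 328 without 1 array. The alternatives averaged a gene's probe sets but did not put another single probe set in its place. On the dimmer TP53INP1 probe set the sign was opposite for the untreated line difference (-0.10 against 2.25) and the interaction (0.07 against -2.81). Within replicate 1 alone SESN1 changed by -0.15 with prednisolone in control cells, against 1.26 within replicates 2 to 4. The number of members called for prednisolone in control cells, 6 in the fit reported, was 12 with only these groups, 12 with a batch term for replicate 1 and 14 without its 4 arrays. In cells labelled CASP1, 3 in the fit reported, it was 5 with the replicate block, 5 with the batch term and 6 without replicate 1. The interaction count of 2 was 6 without replicate 1. The replicate block gave 9 for prednisolone in control cells, 17 and 16 for the line differences and 3 for the interaction. Calls over all genes rose with the block too. They went from 2568 to 3174 for prednisolone in control cells and from 1150 to 1559 in cells labelled CASP1. For the lines they went from 2552 to 3213 untreated and from 2974 to 3819 treated. Without 1 array at a time the counts were 6 for prednisolone in control cells, 1 to 3 in cells labelled CASP1, 9 to 17 and 11 to 14 for the lines and 2 to 3 for the interaction. Over all genes, leaving out replicate 1 moved the calls from 2568 to 3969, 1150 to 2161, 2552 to 3876, 2974 to 4062 and 161 to 727, in the order prednisolone in control cells, in cells labelled CASP1, lines untreated, lines treated and interaction. Prednisolone in cells labelled CASP1 had 688 calls over all genes with only its groups and 1793 with the batch term, and the interaction had 289 with the replicate block and 392 with the batch term. Without replicate 1 the median line difference of the members was 0.36 untreated and 0.21 treated.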
